A study of Mus musculus with 6 samples.

Results

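The 10 genes described here are targets of the transcription factor STAT5 and feedback regulators of cytokine signalling: Cish, Socs1, Socs2, Socs3, Stat5a, Stat5b, Pim1, Osm, Bcl6 and Id1. They were chosen by name, with earlier results of these data known, and each had to be the only symbol of a probe set on the array. All 10 were measured, among 19938 named genes in all. For a gene with more than 1 probe set, the brightest by its mean over the 6 arrays was kept.

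RNA of sorted mouse marrow cells was read on Affymetrix whole-transcript arrays, 1 array per sample, in 3 groups of 2 biological replicates. In the BCR-ABL-Blk group the retrovirus carried BCR-ABL, Blk and GFP, in the BCR-ABL group BCR-ABL and GFP, and in the vector group only GFP. BCR-ABL is the fusion kinase of chronic myeloid leukemia (CML), and Blk is a kinase of the Src family. All groups share the rest: C57BL/6 (B6) donors that had received 5-fluorouracil, B6 recipients, a genotype labelled WT, an age of 8 weeks, collection 14 days after transplantation, and a sort for GFP+ Lin- c-Kit+ Sca-1+ cells. The labels call the vector cells HSCs (hematopoietic stem cells) and the other cells LSCs (leukemic stem cells). How many mice a replicate holds is not stated, so the p-values measure the spread between these samples. Expression came from a virus added to normal marrow, and the promoter that drives it is not named in the labels.

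STAT5 exists as 2 closely related proteins, STAT5A and STAT5B. Janus kinases bound to a cytokine receptor phosphorylate it, after which it pairs, enters the nucleus and binds a palindromic DNA motif at genes of survival and growth. CISH and the SOCS proteins are among the products, and they dampen the receptor and kinase that started the signal. BCR-ABL is known to keep STAT5 phosphorylated without a cytokine.

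The values are log2 signals, so a difference of 1 is a doubling of the measured signal. The medians of the deposited values lay between 7.01 and 7.52 on the arrays, and the arrays were quantile normalized before testing. Signal over background was not measured. The median level of all named genes was 7.498, and Bcl6 alone among the 10 had a mean below it (7.15). The gate marker Kit read 10.3 to 10.9 on the 6 arrays, and Ly6a, which encodes Sca-1, was not analysed here. With 2 arrays a group the number of arrays limits the precision: the median standard error of a difference was 0.129. In sorted bulk RNA, fewer cells of a type and less RNA per cell cannot be told apart.

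The transgenes themselves were not visible as a clear difference. Blk read 6.95 and 7.01 in BCR-ABL-Blk cells and 6.54 and 6.60 in BCR-ABL cells, against 7.15 and 6.95 in vector cells. The difference was 0.41 for BCR-ABL-Blk against BCR-ABL (95% interval 0.16 to 0.66, limma adjusted p = 0.999) and −0.07 for BCR-ABL-Blk against vector (−0.33 to 0.18). For BCR-ABL against vector it was −0.48 (95% interval −0.73 to −0.23, limma adjusted p = 0.196). Abl1 and Bcr lay between 9.07 and 9.97 on all arrays. Whether the probes read the viral transcripts was not tested, and the groups are named as labelled.

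None of the 10 genes passed the test over all genes in any of the 3 comparisons (limma, Benjamini-Hochberg adjusted p under 0.05). Of all genes, 0.120% passed as higher and 0.0251% as lower with BCR-ABL than with vector. For BCR-ABL-Blk against vector cells the shares were 0.0953% and 0.0451%, and for BCR-ABL-Blk against BCR-ABL cells they were 0% and 0%. At an unadjusted p under 0.05, 4 of the 10 genes were higher and 1 was lower with BCR-ABL than with vector, beside 5.67% and 2.96% of all genes. The same counts were 2 and 1 for BCR-ABL-Blk against vector cells, beside 5.31% and 4.11% of all genes. For BCR-ABL-Blk against BCR-ABL cells they were 0 and 2, beside 1.47% and 2.49%. The comparisons share arrays and are not independent of each other. An exact permutation test of 1 gene cannot go below a two-sided p of 0.333 with 2 arrays against 2.

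**Figure D1:**
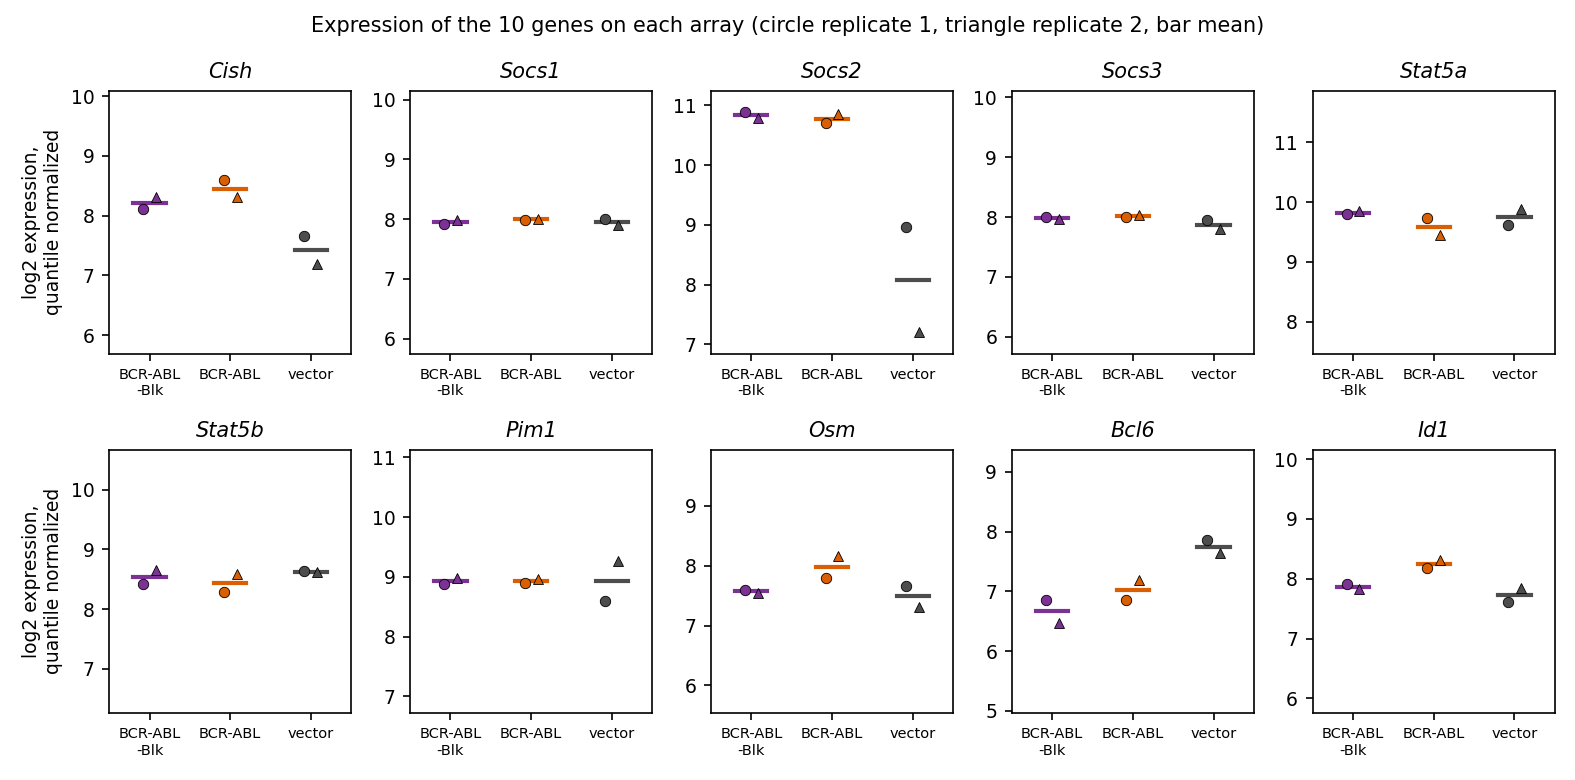
Each panel shows 1 gene, with quantile normalized log2 expression on the y axis and the groups on the x axis; circles are replicate 1, triangles replicate 2 and bars group means, and all panels span the same range. Socs2 and Cish lay higher on the 4 arrays with BCR-ABL than on both vector arrays, Bcl6 lay lower on them, and the vector replicates of Socs2 stood 1.76 apart.

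Counted by arrays, 5 of the 10 genes lay higher on both BCR-ABL arrays than on both vector arrays (Socs2, Socs3, Cish, Osm and Id1), beside 22.1% of all genes, and 2 lay lower (Stat5b and Bcl6), beside 14.9%. For BCR-ABL-Blk against vector cells, 3 lay higher (Socs2, Socs3 and Cish; 19.7% of all genes) and 1 lower (Bcl6; 17.5%). For BCR-ABL-Blk against BCR-ABL cells, 1 lay higher (Stat5a; 14.0% of all genes) and 4 lower (Socs1, Socs3, Osm and Id1; 20.0%). The median difference of the 10 genes was 0.10, 0.07 and −0.04 in BCR-ABL against vector, BCR-ABL-Blk against vector and BCR-ABL-Blk against BCR-ABL cells, beside 0.016, 0.004 and −0.014 over all genes.

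Among the feedback inhibitors, Socs2 had the highest difference from vector. SOCS2 binds phosphorylated receptors and is known as a restraint on growth hormone signalling. Socs2 read 10.89 and 10.78 in BCR-ABL-Blk cells and 10.70 and 10.85 in BCR-ABL cells, against 8.96 and 7.21 in vector cells (replicates 1 and 2). The 4 arrays with BCR-ABL lay close together, and both vector arrays lay below them and far from each other. Of all genes, 99.8% had a smaller gap between the vector replicates than Socs2. The means were 10.84 ± 0.08 in BCR-ABL-Blk, 10.78 ± 0.10 in BCR-ABL and 8.08 ± 1.24 in vector cells (SD, n = 2 each).

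Socs2 differed by 2.69 between BCR-ABL and vector cells, or 6.46-fold (SE 0.47, 95% interval 1.59 to 3.80, limma adjusted p = 0.103). Between BCR-ABL-Blk and vector cells it differed by 2.75, or 6.73-fold (95% interval 1.64 to 3.86, limma adjusted p = 0.0863). Neither difference passed. Without vector replicate 1 the differences were 3.57 and 3.63 and passed (limma adjusted p = 3.98e-05 and 3.51e-05). Without vector replicate 2 they were 1.81 and 1.87 and passed too (limma adjusted p = 0.00108 and 0.00113). In these fits the lone vector array takes its spread from the arrays of both other groups. Between BCR-ABL-Blk and BCR-ABL cells Socs2 differed by 0.06, with an interval from −1.05 to 1.17, and its sign turned with each array centred on its median (−0.055). All groups share the spread in the fit, so that interval also reflects the vector replicates (SD 1.24). The compared groups had SDs of 0.08 (BCR-ABL-Blk) and 0.10 (BCR-ABL).

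A second probe set carries the symbol Socs2 alone and gave a smaller difference. Probe set 10372069 read 8.33 and 8.73 in BCR-ABL-Blk cells and 8.55 and 8.55 in BCR-ABL cells, against 7.61 and 7.39 in vector cells. Its vector arrays lay close together and below the other 4. Fitted in place of the kept probe set, it differed by 1.05 between BCR-ABL and vector cells, or 2.07-fold (SE 0.17, 95% interval 0.65 to 1.45, limma adjusted p = 0.0849). Between BCR-ABL-Blk and vector cells it differed by 1.03, or 2.04-fold (limma adjusted p = 0.0751). Between BCR-ABL-Blk and BCR-ABL cells it differed by −0.02, with an interval from −0.42 to 0.38.

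The array's numbering also separates these probe sets. Of the 20 placed probe sets nearest in number to the kept one, 10394674, 17 belong to genes on chromosome 12 and 0 to genes on chromosome 10, where RefSeq places Socs2. Of the 20 nearest to 10372069, 19 belong to genes on chromosome 10. For each of the other 9 genes all 20 neighbours of the kept probe set lie on the gene's own chromosome. Whether 10394674 reads a locus other than Socs2 was not tested, since probe positions were not used here.

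**Figure D2:**
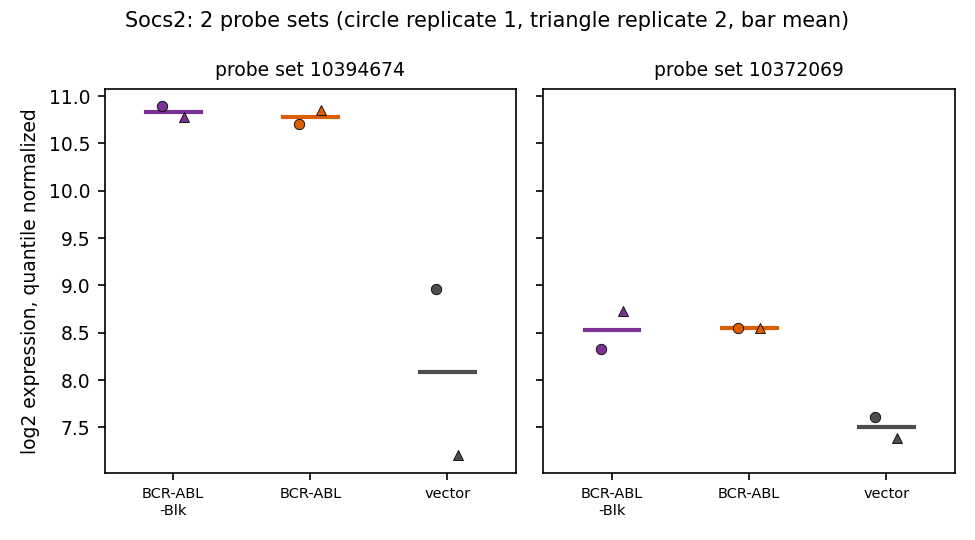
Quantile normalized log2 expression (y axis) of the 2 probe sets named Socs2, by group (x axis), with circles for replicate 1, triangles for replicate 2 and bars for group means. On each probe set the 4 arrays with BCR-ABL lie above both vector arrays, and the vector replicates lie 1.76 apart on 10394674.

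Cish encodes the first described inhibitor of this family and is a textbook STAT5 target. It read 8.12 and 8.31 in BCR-ABL-Blk cells and 8.59 and 8.30 in BCR-ABL cells, against 7.66 and 7.19 in vector cells. All 4 arrays with BCR-ABL lay above both vector arrays, and the BCR-ABL-Blk and BCR-ABL arrays overlapped. Cish differed by 1.02 between BCR-ABL and vector cells, or 2.03-fold (SE 0.19, 95% interval 0.57 to 1.47, limma adjusted p = 0.132). Against vector, BCR-ABL-Blk cells differed by 0.79, or 1.72-fold (95% interval 0.34 to 1.24, limma adjusted p = 0.214). Neither difference passed over all genes. Without vector replicate 1 they were 1.25 and 1.02 and passed (limma adjusted p = 0.0175 and 0.0324), and without vector replicate 2 they were 0.79 and 0.55 and did not (0.146 and 0.354). Between BCR-ABL-Blk and BCR-ABL cells Cish differed by −0.24, with an interval from −0.69 to 0.21, and by 0.065 with the deposited values, where the median gene shifted by 0.255.

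The start of Cish holds a pair of STAT motifs close together, and its sequence is shown for that reason. The motif searched was TTCNNNGAA, which is its own reverse complement, so a match counts for both strands. The windows run from 250 bases before to 50 after each start in RefSeq (GRCm38.p6). The stretch below, chr9:107296559-107296688 on the plus strand, runs from base −100 to base 30, with base 1 the first transcribed one. The motifs, in capitals, lie at bases 1 to 9 and 12 to 20.

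Cish: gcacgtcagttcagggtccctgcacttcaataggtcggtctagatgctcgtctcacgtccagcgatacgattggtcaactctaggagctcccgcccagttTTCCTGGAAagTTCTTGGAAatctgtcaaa

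At least 1 match was found in 8.30% of all 32851 windows, and 2 or more in 0.457%. Of the 10 genes, 7 have windows in the table, 11 in all, and 4 of these windows held a match, in Cish, Socs3 and Bcl6. The windows of Socs1, Stat5a, Stat5b and Pim1 held no match, which says only that these letters are not in those stretches. No window of Socs2, Osm or Id1 was used here. Of the other pathway genes in the table, 3 of 17 receptor genes hold a match and 0 in the other lists. Counted by gene, 2582 of all 27025 genes hold one. A match is a description of letters and not a measured binding site.

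**Figure D3:**
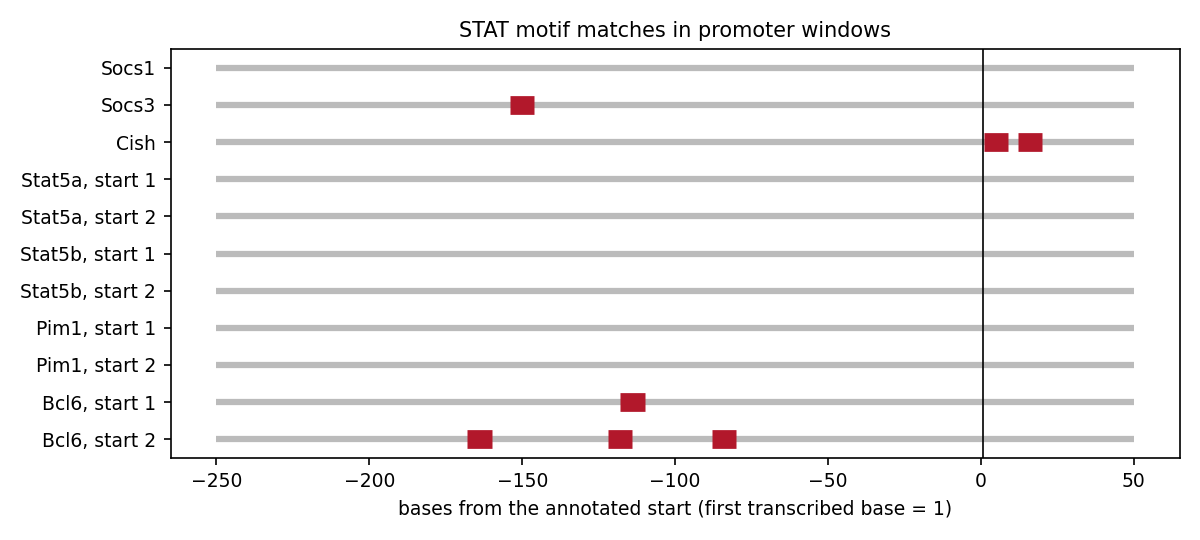
Position of each match of the motif (x axis, bases from the first transcribed base) in the promoter windows of the genes found in the RefSeq table (y axis, 1 line per start). Matches lie in Cish at the start itself, in Socs3 once and in Bcl6 at both starts; the other windows hold none.

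SOCS1 and SOCS3 are known to inhibit Janus kinases directly. Socs1 read 7.92 and 7.99 in BCR-ABL-Blk cells and 7.99 and 8.01 in BCR-ABL cells, against 8.01 and 7.90 in vector cells. The groups were nearly level: BCR-ABL and vector cells differed by 0.05 (95% interval −0.24 to 0.34), and BCR-ABL-Blk and BCR-ABL cells by −0.05 (−0.34 to 0.24). Both signs turned with the deposited values (−0.085 and 0.245). Socs3 read 8.00 and 7.97 in BCR-ABL-Blk cells and 8.01 and 8.04 in BCR-ABL cells, against 7.95 and 7.79 in vector cells. Its 4 arrays with BCR-ABL lay above both vector arrays by little: the difference was 0.15 for BCR-ABL (95% interval −0.14 to 0.45) and 0.11 for BCR-ABL-Blk (−0.18 to 0.40). A second Socs3 probe set overlapped between all groups, with differences from vector of 0.006 for BCR-ABL and −0.004 for BCR-ABL-Blk. For the kept probe sets of both genes the intervals are narrower than a doubling in either direction.

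The Socs3 window holds 1 match, shown beside the Cish pair as the other feedback inhibitor with a match. The stretch is chr11:117969467-117969566 on the minus strand, bases −200 to −101, with the match in capitals at bases −154 to −146.

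Socs3: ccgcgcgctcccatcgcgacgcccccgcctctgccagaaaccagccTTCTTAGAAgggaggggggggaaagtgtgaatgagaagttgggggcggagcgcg

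For the genes of STAT5 itself no difference was detected. Stat5a read 9.80 and 9.84 in BCR-ABL-Blk cells and 9.73 and 9.45 in BCR-ABL cells, against 9.62 and 9.88 in vector cells. Stat5b read 8.42 and 8.65 in BCR-ABL-Blk cells and 8.28 and 8.59 in BCR-ABL cells, against 8.63 and 8.62 in vector cells. For BCR-ABL against vector the differences were −0.17 for Stat5a (95% interval −0.53 to 0.20) and −0.19 for Stat5b (−0.57 to 0.19). For BCR-ABL-Blk against BCR-ABL they were 0.23 (−0.13 to 0.59) and 0.10 (−0.28 to 0.48). The BCR-ABL-Blk arrays of Stat5a both lay above the BCR-ABL arrays, by less than the interval of the difference. Stat5a and Stat5b are near-identical over much of their length, so probes that read both cannot be told apart here. The arrays read RNA and not the phosphorylation that activates STAT5.

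Pim1 encodes a serine/threonine kinase that promotes survival and is a classical STAT5 target. It read 8.88 and 8.98 in BCR-ABL-Blk cells and 8.89 and 8.97 in BCR-ABL cells, against 8.59 and 9.26 in vector cells. The arrays with BCR-ABL lay between the vector replicates. Its difference from vector was 0.005 for BCR-ABL (95% interval −0.51 to 0.52) and 0.005 for BCR-ABL-Blk (−0.51 to 0.52), with a gap of 0.67 between the vector replicates. BCR-ABL-Blk and BCR-ABL cells differed by 0.001 (−0.51 to 0.51). As all groups share the spread in the fit, that interval also reflects the vector replicates (SD 0.47). The SDs were 0.07 in BCR-ABL-Blk and 0.06 in BCR-ABL cells.

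Bcl6 encodes a transcriptional repressor best known from germinal centre B cells, and STAT5 is known to repress it in several cell types. It read 6.86 and 6.48 in BCR-ABL-Blk cells and 6.86 and 7.18 in BCR-ABL cells, against 7.86 and 7.64 in vector cells. Both vector arrays lay above all 4 others. The difference from vector was −1.08 for BCR-ABL-Blk, 2.12-fold lower (95% interval −1.49 to −0.68, limma adjusted p = 0.0715), and −0.73 for BCR-ABL, 1.66-fold lower (−1.14 to −0.32, limma adjusted p = 0.221). Without vector replicate 2 the BCR-ABL-Blk difference was −1.19 and passed (limma adjusted p = 0.0393). Without vector replicate 1 it was −0.97 and did not (0.0503). BCR-ABL-Blk and BCR-ABL cells differed by −0.35, with an interval from −0.76 to 0.05, and by −0.065 with the deposited values.

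Bcl6 has 2 starts in the table, and both windows hold the motif, 1 match at the first and 3 at the second. Of all windows, 0.033% hold 3 or more. The first stretch is chr16:23988913-23989002 and the second chr16:23981334-23981483, both on the minus strand. The matches in capitals lie at bases −118 to −110 of the first start, and at −168 to −160, −122 to −114 and −88 to −80 of the second.

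Bcl6 start 1: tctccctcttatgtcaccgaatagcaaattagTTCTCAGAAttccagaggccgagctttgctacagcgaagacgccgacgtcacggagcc
Bcl6 start 2: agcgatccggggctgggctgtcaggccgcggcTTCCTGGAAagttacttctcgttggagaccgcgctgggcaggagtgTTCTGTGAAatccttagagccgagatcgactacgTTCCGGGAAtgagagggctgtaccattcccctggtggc

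Osm and Id1 stood highest in BCR-ABL cells. Osm encodes oncostatin M, a ligand of the interleukin 6 (IL-6) family, and Id1 an inhibitor of basic helix-loop-helix factors. Osm read 7.60 and 7.54 in BCR-ABL-Blk cells and 7.80 and 8.16 in BCR-ABL cells, against 7.67 and 7.32 in vector cells. Id1 read 7.91 and 7.83 in BCR-ABL-Blk cells and 8.18 and 8.31 in BCR-ABL cells, against 7.61 and 7.84 in vector cells. For both genes the BCR-ABL arrays lay above those of the other groups, and the BCR-ABL-Blk and vector arrays overlapped.

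Between BCR-ABL and vector cells Osm differed by 0.49, or 1.40-fold (95% interval 0.09 to 0.89, limma adjusted p = 0.459), and Id1 by 0.52, or 1.43-fold (0.20 to 0.85, limma adjusted p = 0.301). Between BCR-ABL-Blk and BCR-ABL cells Osm differed by −0.41 (95% interval −0.82 to −0.01) and Id1 by −0.38 (−0.70 to −0.05). These were the only 2 of the 10 genes with an unadjusted p under 0.05 in that comparison (0.0466 and 0.0289), and the limma adjusted p was 0.999 for both. With the deposited values they were −0.13 and −0.095, beside a median of 0.255 over all genes. Against vector, BCR-ABL-Blk cells differed by 0.08 for Osm (−0.33 to 0.48) and 0.15 for Id1 (−0.18 to 0.47).

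**Figure D4:**
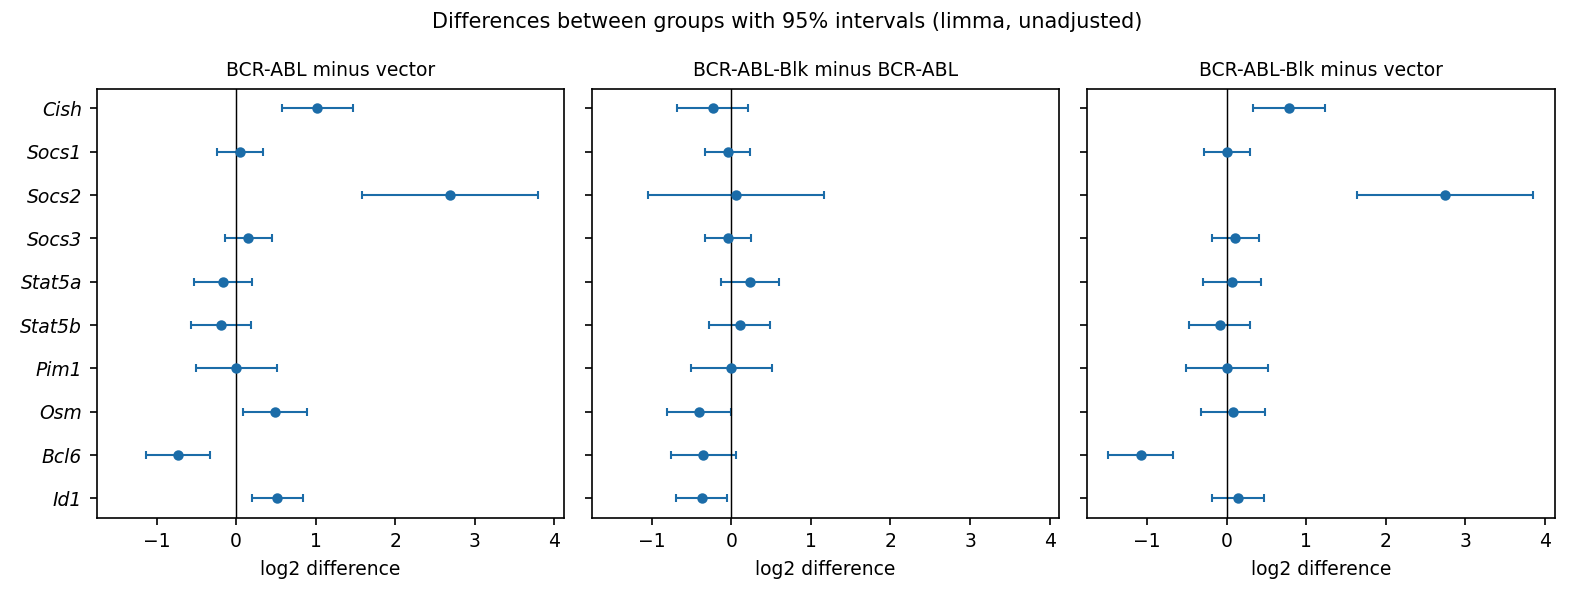
Difference in log2 expression (x axis) of the 10 genes (y axis) in each comparison, with points for the limma estimate and bars for the unadjusted 95% interval. The intervals of Socs2, Cish, Osm and Id1 lie above 0 and that of Bcl6 below 0 for BCR-ABL against vector, while for BCR-ABL-Blk against BCR-ABL those of Osm and Id1 lie below 0.

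Levels of markers of other cell types differed on the same arrays. All 8 measured B cell markers, all 10 of monocytes and dendritic cells, all 9 of neutrophils and all 6 measured erythroid markers had a mean below that of vector in both groups with BCR-ABL, as Bcl6 did. All 6 measured megakaryocyte markers had a mean above that of vector in both, as Socs2 and Cish did. Of all genes, 54.4% had a difference above 0 with BCR-ABL and 51.2% with BCR-ABL-Blk. Not all of these markers lay apart by arrays. Below both vector arrays on both BCR-ABL arrays lay 8 B cell, 10 monocyte and dendritic cell, 4 neutrophil and 4 erythroid markers. The share over all genes was 14.9%. Above both vector arrays lay 4 of the 6 megakaryocyte markers, beside 22.1% of all genes. The B cell markers averaged 8.34 and 8.03 in BCR-ABL-Blk and 7.68 and 8.11 in BCR-ABL cells, against 10.7 and 9.18 in vector cells. Those of monocytes and dendritic cells averaged 8.21 and 8.34 in BCR-ABL-Blk and 8.09 and 8.35 in BCR-ABL cells, against 9.45 and 9.68 in vector cells. Those of megakaryocytes averaged 8.34 and 8.31 in BCR-ABL-Blk and 8.40 and 8.41 in BCR-ABL cells, against 7.97 and 7.62 in vector cells. The vector arrays thus lay apart from the other 4 on each of these 3 lists.

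The 8 measured stem cell markers averaged 9.91 and 9.95 in BCR-ABL-Blk and 9.79 and 9.90 in BCR-ABL cells, against 9.34 and 9.12 in vector cells. They were not uniform: 6 had a mean above that of vector in both groups, and Kit and Flt3 had one below it. Few markers passed the test. With BCR-ABL against vector these were Gzmb of the mast cell, basophil and eosinophil list (3.25) and Klrd1 of the T and NK cell list (−1.29). With BCR-ABL-Blk against vector they were Gzmb (2.503), Klrd1 (−1.03), the stem cell marker Meis1 (1.08) and the monocyte marker Ccr2 (−1.38). The lists that hold Gzmb and Klrd1 were mixed. Of the 10 mast cell, basophil and eosinophil markers, 6 lay above 0 and 4 below in both comparisons. Of the 7 T and NK cell markers, 5 lay above 0 and 2 below with BCR-ABL, and 3 above and 4 below with BCR-ABL-Blk.

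Between BCR-ABL-Blk and BCR-ABL cells all 9 neutrophil and all 6 erythroid markers had a difference below 0, as Osm and Id1 did. So did all 10 mast cell, basophil and eosinophil markers, and 10830 of all 19938 genes. By arrays 6, 5 and 3 markers of these lists lay lower, beside 20.0% of all genes. Above 0 lay 5 of 8 B cell, 7 of 10 monocyte and dendritic cell and 6 of 8 stem cell markers. Of the megakaryocyte markers 2 of 6 did, and of the T and NK cell markers 2 of 7. The neutrophil markers averaged 10.08 and 9.87 in BCR-ABL-Blk cells, against 10.165 and 10.503 in BCR-ABL cells (10.486 and 11.066 in vector cells). The erythroid markers averaged 9.65 and 9.30 in BCR-ABL-Blk cells, against 9.87 and 9.81 in BCR-ABL cells (10.58 and 10.15 in vector cells). Those of mast cells, basophils and eosinophils averaged 9.12 and 8.29 in BCR-ABL-Blk cells, against 8.996 and 9.161 in BCR-ABL cells (8.33 and 8.17 in vector cells). On this last list the BCR-ABL-Blk arrays overlapped the BCR-ABL arrays. Unlike Osm and Id1, the neutrophil and erythroid lists had their highest group average in vector cells. No marker read 0. The part of these cell types in the values of Socs2, Cish, Bcl6, Osm and Id1 was not tested.

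The rest of the pathway was described with 7 lists of named genes. Of the 65 measured genes, 1 passed in BCR-ABL against vector and none in the other comparisons. That gene was Il6, which encodes interleukin 6. It read 5.57 and 5.06 in BCR-ABL-Blk cells and 6.01 and 5.92 in BCR-ABL cells, against 4.29 and 3.84 in vector cells. All these values lie below the median level of all genes. Il6 rose by 1.90 in BCR-ABL against vector cells, or 3.74-fold (SE 0.20, 95% interval 1.45 to 2.36, limma adjusted p = 0.0254). The call was lost without BCR-ABL replicate 1 (1.86, limma adjusted p = 0.239), without BCR-ABL replicate 2 (1.95, 0.254) and without an intensity trend (0.059). BCR-ABL-Blk cells differed from vector by 1.25 (limma adjusted p = 0.0715) and from BCR-ABL cells by −0.65 (limma adjusted p = 0.999). The difference of BCR-ABL-Blk from vector passed with the replicate block (limma adjusted p = 0.0422), without vector replicate 1 (1.48, 0.0112) and with the deposited values (1.38, 4.11e-05).

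Of the receptor chains, 17 of 20 were measured and 0 passed. In BCR-ABL against vector cells 5 had a difference above 0 and 12 below 0, beside 54.4% of all genes above 0. Their median was −0.28, beside 0.016 over all genes. By arrays 3 lay higher and 8 lower, beside 22.1% and 14.9% of all genes. Il2ra encodes the alpha chain of the interleukin 2 receptor and is a known STAT5 target in lymphocytes. It read 7.45 and 7.63 in BCR-ABL-Blk cells and 8.17 and 8.17 in BCR-ABL cells, against 6.79 and 5.48 in vector cells. The difference for BCR-ABL was 2.03, or 4.09-fold (limma adjusted p = 0.103), and for BCR-ABL-Blk 1.40 (limma adjusted p = 0.242). Between BCR-ABL-Blk and BCR-ABL cells Il2ra differed by −0.63 (limma adjusted p = 0.999). Il7r, the interleukin 7 receptor of lymphoid precursors, read 6.99 and 6.33 in BCR-ABL-Blk and 6.64 and 6.73 in BCR-ABL cells, against 9.70 and 7.35 in vector cells. Its vector replicates were far apart, and its differences of −1.87 and −1.84 did not pass. Il6st, the shared chain of IL-6 family receptors, differed by −0.81 in BCR-ABL against vector (limma adjusted p = 0.243), Ifngr1 by −0.38 (0.229) and Ghr, the growth hormone receptor, by 0.66 (0.0945). Csf2rb, the common beta chain, differed by 0.18. Csf2rb2 is a near-identical copy, so this value is uncertain. In BCR-ABL-Blk against BCR-ABL cells 9 of the 17 receptor genes lay above 0 and 8 below, beside 45.6% of all genes above 0. There Ifngr1 and Csf2rb differed by −0.24 each and Il6st by 0.20.

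Of the SOCS genes outside the 10, 4 of 4 were measured and 0 passed. Socs6 and Socs5 differed by 0.60 and 0.46 in BCR-ABL against vector cells (limma adjusted p = 0.562 and 0.339), Socs4 by 0.05 and Socs7 by −0.07. Of the other STATs 4 of 5 were measured and 0 passed, with 0.65 for Stat4 (limma adjusted p = 0.313), −0.56 for Stat2 (0.338), 0.09 for Stat3 and −0.02 for Stat6. Of the Janus kinases 3 of 4 were measured and 0 passed, with 0.16 for Jak1, 0.18 for Jak2 and −0.33 for Tyk2. The 12 other negative regulators, all measured, included 0 that passed, and their differences lay between −0.21 for Cbl and 0.40 for Ptpn2. The phosphatase gene Ptpn11 differed by −0.21, and Pias1, Pias2 and Pias4, which encode inhibitors of STATs, by −0.19, 0.15 and −0.04. In BCR-ABL-Blk against BCR-ABL cells the largest differences of these lists were 0.29 for Ptpn11 and 0.27 for Socs7. Above 0 there lay 8 of the 12 negative regulators and 1 of the 4 SOCS genes, beside 45.6% of all genes.

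Of the other reported STAT5 targets 19 of 19 were measured and 0 passed; their median difference was 0.05 in BCR-ABL against vector cells. Lif, another IL-6 family ligand, differed by 0.76, Bcl2l1, which encodes the survival protein BCL-XL, by 0.54, Dusp4 by 0.45, Ccnd1 (cyclin D1) by −0.45 and Id2 by −0.44. Tfrc, the transferrin receptor, differed by −0.17 and Dusp6 by 0.05. The smallest limma adjusted p among these 19 was 0.313. In BCR-ABL-Blk against BCR-ABL cells 14 of the 19 lay below 0, beside 10830 of all 19938 genes. Their median was −0.13 beside −0.01 over all genes, and none passed. The largest differences there were −0.32 for Id2, −0.295 for Tfrc and −0.24 for each of Lif and Dusp6. Of the other Id proteins and IL-6 family ligands 6 of 7 were measured, of which Il6 alone passed; Id3 differed by −0.85 in BCR-ABL against vector cells (limma adjusted p = 0.582), while Il11, Ctf1 and Clcf1 differed by −0.05, 0.001 and −0.03.

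**Figure D5:**
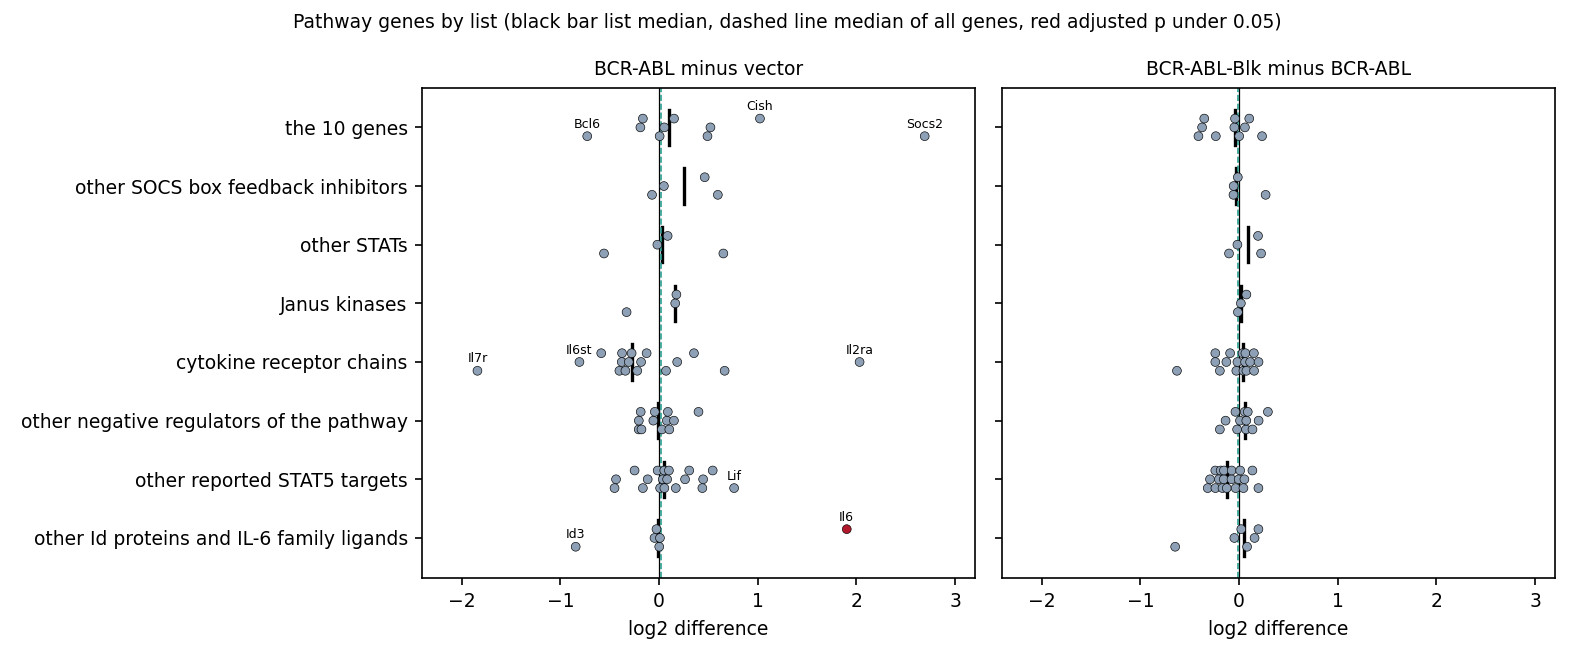
Difference in log2 expression (x axis) of each measured gene in the 10 genes and the 7 pathway lists (y axis), for BCR-ABL minus vector and BCR-ABL-Blk minus BCR-ABL; each point is 1 gene, black bars are list medians, the dashed line is the median of all genes and red marks the gene that passed. Most points lie close to 0, and Socs2, Il2ra and Il6 reach 2.69, 2.03 and 1.90 for BCR-ABL against vector. The Socs2 point is the kept probe set, 10394674, and the other one, 10372069, gave 1.05.

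By likeness over the 6 arrays, the genes closest to the kept Socs2 probe set, 10394674, were Osbpl1a (Pearson r 0.9977), Il18r1 (0.9972), Slc41a2 (0.9963), Plxdc2 (0.9951) and Ranbp17 (0.9938). For the other Socs2 probe set, 10372069, they were Myo10 (0.9923), Kif21a (0.9868), Syde2 (0.9831), Arhgap29 (0.9772) and Tnfrsf18 (0.9764), so the 5 genes named depend on the probe set, and which locus 10394674 reads was not tested. The 2 probe sets had an r of 0.9362 with each other. For Cish the closest were Trim13 (0.988), Nupr1 (0.9853), Gimap9 (0.9852), Pla2g4a (0.9836) and Lgalsl (0.982). These r values are a description over 6 arrays that fall into a vector and a BCR-ABL cluster, and 185 of 1668 genes compared had r over 0.9 with 10394674, 139 with 10372069 and 117 with Cish.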

How the data were processed

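Total RNA of sorted cells was hybridised to 6 arrays, grouped by the sample titles. The deposited values are log2 signals of 35557 probe sets with 2 decimals, made by the authors with Affymetrix Expression Console 1.1 and RMA, per the submitters' processing notes. Not given in the sources used here were its options and genome build. Because the medians of the deposited log2 values differed between arrays, the arrays were quantile normalized, which can hide a shift of all genes. The platform annotation named 21789 probe sets with 1 symbol and 1621 with several, and left 12147 unnamed; those with several were not used. Of the 21789, 21698 matched RefSeq by Entrez ID and 0 symbols were updated. The probe set with the highest mean was kept for the 999 genes with several, leaving 19938 genes.

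Differences were tested with limma (version 3.58.1, R 4.3.3; lmFit and eBayes, trend on), fitted to the 3 groups at once, with 3 residual and 4.40 prior degrees of freedom. P-values are two-sided and Benjamini-Hochberg adjusted over the 19938 genes, with a threshold of 0.05; intervals are unadjusted. The fit was tested on simulated data drawn with the same spread in every group, so a wider spread in the vector group was not simulated. The members and lists were chosen with earlier results of these data known. The genes named are the 10 members, the genes past the threshold and up to 4 with the largest difference of each pathway list in BCR-ABL against vector or BCR-ABL-Blk against BCR-ABL, and the 5 most like Socs2 and Cish among genes with an SD of at least 0.3. The likeness of the other Socs2 probe set and the markers that passed were added after the values were seen. Promoters came from RefSeq. Alternatives were the scaling, the replicate block, only the groups compared, no intensity trend, array weights, the mean of probe sets, dim genes left out and each array left out; the other probe sets of Socs2 and Socs3 were added after seeing the data. Tables and figures were made in Python 3.11.15 (matplotlib 3.10.9, numpy 2.4.6, pandas 2.3.3).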

Additional observations from a re-analysis of the deposited data

How the results depend on the processing

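With the deposited values, unscaled between arrays, 2 of the 10 genes passed in BCR-ABL against vector (Socs2 and Cish), 3 in BCR-ABL-Blk against vector (with Bcl6) and 0 in BCR-ABL-Blk against BCR-ABL, and 401, 731 and 79 of all genes passed, against 29, 28 and 0. There the prior took over the gene's own spread, and the median of all genes shifted by −0.11, 0.15 and 0.255, so differences include that shift. For all genes, BCR-ABL against vector gave 15 without an intensity trend and 53 with dim genes left out (which drops Bcl6 and Il6); BCR-ABL-Blk against vector gave 4 with only the groups compared, 4 without a trend, 14 with array weights and 71 with dim genes left out. Leaving out 1 array each gave 0 to 2 of the 10 genes against vector in both comparisons and 0 in the third; over all genes it gave 1 to 507 in BCR-ABL against vector, 4 to 554 in BCR-ABL-Blk against vector and 0 to 2 in BCR-ABL-Blk against BCR-ABL. The highest counts, 507 and 554, came without vector replicate 1 (214 and 227 without vector replicate 2); the lowest, 1 and 4, came with BCR-ABL replicate 1 or 2 left out. The cause was not tested.

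With the replicate block, 29, 23 and 0 genes and 0 of the 10 passed; Il6 then passed in BCR-ABL-Blk against vector (adjusted p = 0.0422). The labels give same-numbered replicates a common number and do not say whether they share anything else. Their deviations correlated at −0.06, 0.08 and 0.03.

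Some differences that did not pass turned sign. With the deposited values, BCR-ABL against vector gave −0.085 for Socs1 and −0.075 for Pim1, BCR-ABL-Blk against BCR-ABL 0.245 for Socs1, 0.25 for Socs3 and 0.065 for Cish, and BCR-ABL-Blk against vector 0.08 for Stat5b. With arrays centred on the median, BCR-ABL-Blk against BCR-ABL gave −0.055 for Socs2 and −0.025 for Pim1. The other probe set gave −0.019 for Socs2 in that comparison and −0.004 for Socs3 in BCR-ABL-Blk against vector. Leaving out 1 array each, the ranges were, for BCR-ABL against vector, −0.003 to 0.107 (Socs1) and −0.331 to 0.34 (Pim1); for BCR-ABL-Blk against BCR-ABL, −0.013 to 0.132 (Socs2), −0.054 to 0.259 (Stat5b) and −0.049 to 0.051 (Pim1); and for BCR-ABL-Blk against vector, −0.051 to 0.059 (Socs1), −0.063 to 0.198 (Stat5a), −0.202 to 0.026 (Stat5b), −0.33 to 0.341 (Pim1) and −0.097 to 0.253 (Osm). Signal over background was not measured, which limits the folds of dim genes such as Il6 and Bcl6.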
